A study of Homo sapiens with 3 samples.

Results

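The genes of the hnRNP and SRSF families encode abundant regulators of pre-mRNA splicing. They were chosen by name, as every protein-coding gene of the deposited table whose symbol begins with HNRNP, or reads SRSF and a number. There were 35 of them among 44591 genes (19233 protein-coding), 23 hnRNP genes and 12 SRSF genes. Caki-1, a human kidney cancer cell line, was the source of the RNA, harvested 48 h after the cells received the control siRNA (si-Control) or either of 2 siRNAs to RBCK1, named HOIL-1 in the labels (si-RBCK1 #1 and si-RBCK1 #2). The siRNA dose in the general transfection methods is 10 nmol/L. Each condition was sequenced as 1 library. Without replicates no p-value can be given, and "higher" and "lower" describe these 3 libraries.

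SR proteins carry RNA-recognition motifs and a tail rich in arginine and serine. They bind exonic enhancers and help U1 and U2 snRNPs to recognise splice sites. hnRNP proteins coat nascent RNA, and many of them repress exons that SR proteins promote. Both families limit their own levels in many cells by splicing "poison" exons, which send their transcripts to nonsense-mediated decay. The deposited values are given per gene, so transcripts with and without such exons cannot be told apart in them.

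The agents that set the groups apart were both siRNAs. Their sense strands are shown with the bases that an RNA must contain to pair with the seed of the guide strand (guide bases 2 to 8) in capitals.
si-RBCK1 #1: ggtgcaccttcATCAACAa
si-RBCK1 #2: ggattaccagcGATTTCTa
The longest protein-coding RBCK1 transcript of GENCODE release 29 held both strands in full, and 0 members held either.

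Levels are in RPKM, read counts scaled to gene length and to the size of the library, a unit inferred from the values. Where 3 values stand together, they are in the order si-Control, si-RBCK1 #1, si-RBCK1 #2, and where 2 log2 ratios stand together, in the order #1, #2. Library sizes behind the RPKM were 36926834, 40442939 and 36344428 reads. RBCK1 itself was at 33.3, 9.97 and 12.3 RPKM. Of 10 markers of renal carcinoma and epithelium, 6 had a mean of at least 1 RPKM. PAX2, CA9, EPCAM and KRT19 were under that mean, with PAX2 and CA9 below 0.1 RPKM in each library. The 12 markers of blood, endothelial, stromal and liver cells summed to 11.6 to 12.4 RPKM, nearly all of it ACTA2 and COL1A1, and the T-cell gene CD3E was at 0. Of the 6 expressed markers, 3 were higher and 3 lower after depletion. VIM was at 664, 1512 and 1392 RPKM, KRT8 at 65.6, 172 and 238 RPKM and KRT18 at 95.3, 142 and 172 RPKM. PAX8 was at 124, 82.5 and 107 RPKM, CDH2 at 24.5, 17.7 and 15.9 RPKM and MET at 144, 112 and 109 RPKM. The part of these differences in the results below was not tested.

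The question of this comparison was how the splicing regulators stood after RBCK1 depletion. The difference used is log2(RPKM + 1) in each si-RBCK1 library minus si-Control, called the log2 ratio, which understates the change of weakly expressed genes. A mean of at least 1 RPKM was required, and 32 of 35 members had it (21 hnRNP and 11 SRSF genes). The SRSF genes stood higher after depletion, their median log2 ratios being 0.41 and 0.53 (#1, #2). The hnRNP genes had medians of 0.17 and 0.19, and all 12403 genes that met the limit had medians of 0.02 and 0.03. Both comparisons share the si-Control library, so they are not independent of each other. In bulk RNA, more transcript per cell and more cells of a kind that holds more of it cannot be told apart.

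At least a 1.5-fold difference was seen for 8 of the 32 members with si-RBCK1 #1 (25.0%, against 23.7% of all genes) and for 9 with si-RBCK1 #2 (28.1%, against 20.6%). For the members together these shares lie near the background. Higher by that limit were 4 of 11 SRSF genes with si-RBCK1 #1 (36.4%, against 12.1% of all genes) and 5 of 11 with si-RBCK1 #2 (45.5%, against 11.3%). With libraries scaled to equal total RPKM or with a pseudocount of 5 RPKM, SRSF4 came under the limit with si-RBCK1 #1 (0.582 and 0.53), which leaves 3 of 11. No SRSF gene was 1.5-fold lower in the main comparison (background 11.6% and 9.32%). Among protein-coding genes that averaged 10 RPKM or more, closer to the level of the members, the higher share was 13.9% and 12.3%. Of the 21 hnRNP genes, 2 were higher (9.52%) and 2 lower in each library, near or under those backgrounds. At the 2-fold limit of the methods, 0 members differed with si-RBCK1 #1 (background 6.18% in either direction and 3.27% lower) and 2 with si-RBCK1 #2 (background 4.76% in either direction and 2.27% lower). Both were lower hnRNP genes, HNRNPH3 and HNRNPLL, which were also the 2 lower hnRNP genes at 1.5-fold in each library. HNRNPLL met the level limit through si-Control alone, so its place in these counts is in part a product of that limit.

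**Figure D1:**
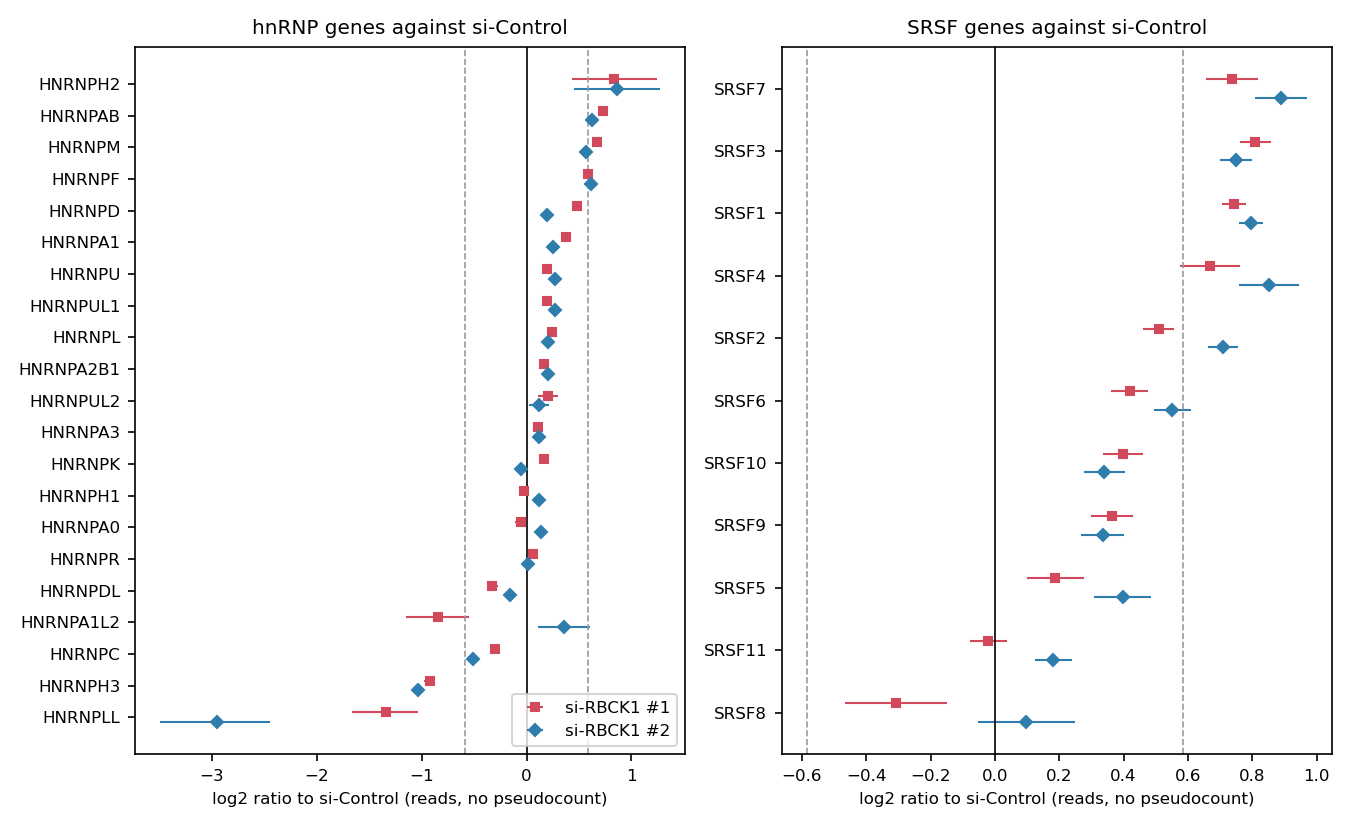
Log2 ratio to si-Control on reads without a pseudocount (x axis) for the 21 hnRNP genes (left) and 11 SRSF genes (right) that averaged 1 RPKM or more. Squares are si-RBCK1 #1, diamonds si-RBCK1 #2, bars the exact 95% counting intervals, which do not cover differences between cultures, and dashed lines mark 1.5-fold; SRSF7, SRSF3, SRSF1 and SRSF4 lie at the top of their panel, and HNRNPH3 and HNRNPLL at the bottom of theirs.

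SRSF1, SRSF3, SRSF7, SRSF4 and SRSF2 made up the higher SR group. SRSF1, the founding SR protein and a factor needed for constitutive splicing, lies on chromosome 17 from 56078280 to 56084707 (hg19, as all gene coordinates here, minus strand). It was at 44.1, 73.8 and 76.6 RPKM (9191, 16853 and 15701 reads). Its log2 ratios were 0.73 and 0.78. On reads alone, without a pseudocount, the 95% counting intervals (exact Clopper-Pearson) were 0.71 to 0.78 and 0.76 to 0.83, so the difference from si-Control far exceeds counting error in each library while the si-RBCK1 libraries sit close together.

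SRSF3, the smallest SR protein and an adaptor for mRNA export, is on chromosome 6 from 36562090 to 36572244. It was at 40.4, 70.7 and 67.8 RPKM, with log2 ratios of 0.79 and 0.73. SRSF7, its closest relative, which carries a zinc knuckle, is on chromosome 2 from 38970741 to 38978636. It was at 21.0, 35.1 and 39.0 RPKM in the same order, with log2 ratios of 0.71 and 0.86. Of the 11 SRSF genes, SRSF3 had the highest ratio with si-RBCK1 #1 and SRSF7 with si-RBCK1 #2. SRSF4, a larger SR protein with a long tail, was at 15.8, 25.1 and 28.5 RPKM, log2 ratios of 0.64 and 0.81. SRSF2, which binds exonic enhancers and stays in the nucleus, was at 52.8, 75.1 and 86.2 RPKM, log2 ratios of 0.50 and 0.70. It passed 1.5-fold only with si-RBCK1 #2.

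SRSF6, SRSF5, SRSF9 and SRSF10 were higher by less than 1.5-fold. SRSF6 was at 27.6, 36.9 and 40.5 RPKM, with log2 ratios of 0.41 and 0.53. SRSF5 was at 30.1, 34.2 and 39.6 RPKM (log2 ratios 0.18 and 0.39). SRSF9, the most abundant SRSF transcript of the line, was at 77.0, 99.1 and 97.2 RPKM (0.36 and 0.33). SRSF10, which represses splicing when it is dephosphorylated after heat shock, was at 11.9, 15.6 and 15.0 RPKM (0.37 and 0.32). For each of these 4 genes the counting intervals lay above 0 in both libraries.

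The remaining SRSF genes did not share this direction throughout. SRSF11, a large SR-related protein, was at 46.3, 45.6 and 52.5 RPKM. Its log2 ratio was -0.02 with si-RBCK1 #1, where the counting interval of -0.08 to 0.04 spans 0, and 0.18 with si-RBCK1 #2. SRSF8, a retrogene derived from SRSF2, was at 4.35, 3.52 and 4.66 RPKM, with log2 ratios of -0.24 and 0.08, the second within counting error (-0.05 to 0.25). SRSF12 was under the level limit at 0.655, 0.742 and 0.329 RPKM (87, 108 and 43 reads), and it is left out of the counts.

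**Figure D2:**
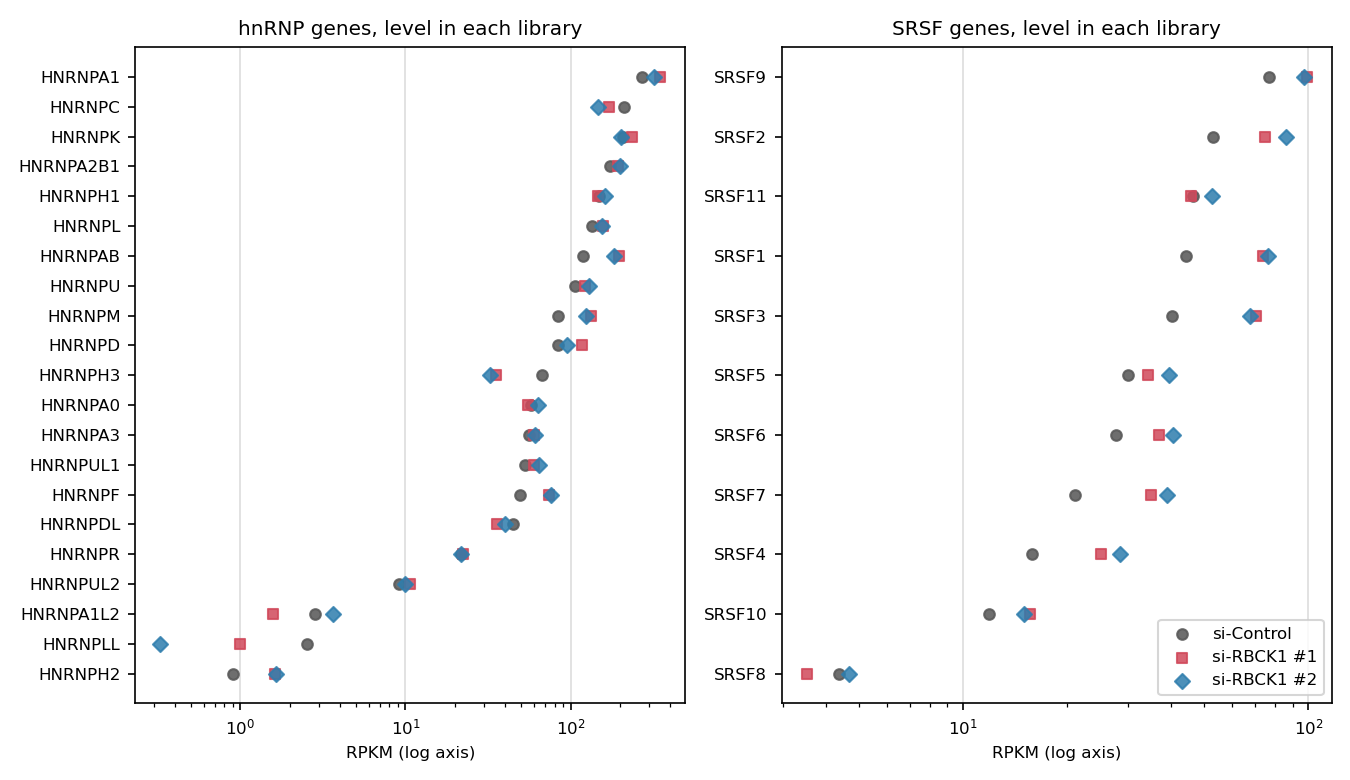
Level of each hnRNP gene (left) and SRSF gene (right) in RPKM on a log axis, ordered by si-Control, for the 32 members that averaged 1 RPKM or more. Circles are si-Control, squares si-RBCK1 #1 and diamonds si-RBCK1 #2. The si-Control circle lies left of both other symbols for SRSF1 to SRSF7, SRSF9, SRSF10 and most hnRNP genes. It lies right of both for HNRNPH3, HNRNPC, HNRNPDL and HNRNPLL.

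Among the hnRNP genes, levels spanned from 269.8 RPKM for HNRNPA1 in si-Control down to HNRNPCL1 and HNRNPCL2. HNRNPCL1 gave 0, 5 and 1 reads in the libraries and HNRNPCL2 gave 1, 1 and 0, so both were under the level limit and no fold is given. The 5 most abundant in si-Control were HNRNPA1, HNRNPC, HNRNPK, HNRNPA2B1 and HNRNPH1, and none of them differed by 1.5-fold.

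The A/B group binds UAG-containing silencers and shuttles between nucleus and cytoplasm. HNRNPA1, its best studied member, was at 269.8, 349.9 and 322 RPKM, with log2 ratios of 0.37 and 0.25. HNRNPA2B1, known for sorting RNAs into vesicles, was at 174, 195 and 200.2 RPKM (0.17 and 0.20), and HNRNPA3 was at 55.8, 60.4 and 60.8 RPKM (0.11 and 0.12). HNRNPAB stood out within the group. On chromosome 5 from 177631508 to 177638184, it was at 119, 196 and 183 RPKM (7951, 14422 and 12087 reads). Its log2 ratios of 0.72 and 0.62 were the highest of any hnRNP gene in each library on this scale. HNRNPD (AUF1), which binds AU-rich elements and promotes decay of mRNAs that carry them, was at 83.6, 117 and 95.7 RPKM, so that its ratio of 0.47 with si-RBCK1 #1 exceeded the 0.19 with si-RBCK1 #2. HNRNPDL, its relative, was lower, at 45.1, 35.9 and 40.4 RPKM (-0.32 and -0.15). HNRNPA0 was at 57.5, 55.2 and 63.3 RPKM (-0.06 and 0.14).

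HNRNPC, which binds uridine tracts and keeps intronic Alu elements out of mRNA, lies on chromosome 14 from 21677295 to 21737638. It was at 209, 170.0 and 147 RPKM (25152, 22363 and 17372 reads). Its log2 ratios were -0.30 and -0.51, the only lower ratios among the 5 most abundant hnRNP genes apart from -0.02 for HNRNPH1 with si-RBCK1 #1 and -0.06 for HNRNPK with si-RBCK1 #2.

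The F/H group binds runs of guanines, and its members went different ways. HNRNPH3 (chromosome 10, 70091450 to 70102953, plus strand) was at 66.8, 35.2 and 32.6 RPKM (7115, 4103 and 3411 reads). This gave log2 ratios of -0.91 and -1.02. Counting error alone left a range of -0.98 to -0.87 for the first and -1.10 to -0.98 for the second. HNRNPF was at 49.7, 74.4 and 75.9 RPKM, with log2 ratios of 0.57, just under 1.5-fold (a log2 ratio of 0.58), and 0.60, just over it. HNRNPH1, the most abundant of the group, was at 149, 147 and 162 RPKM (-0.02 and 0.12). HNRNPH2 was at 0.906, 1.61 and 1.64 RPKM (80, 156 and 143 reads), with log2 ratios of 0.46 and 0.47. On reads without the pseudocount these were 0.83 (0.43 to 1.24) and 0.86 (0.46 to 1.27). It met the level limit only through the si-RBCK1 libraries, so its being higher is in part a product of that limit. In si-Control the H3 transcript was more abundant than F per length, and in each si-RBCK1 library F was more abundant than H3.

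HNRNPLL, which silences the variable exons of CD45 in activated T cells, had the lowest log2 ratio with si-RBCK1 #2. On chromosome 2 from 38790328 to 38830178, it was at 2.53, 0.994 and 0.326 RPKM (283, 122 and 36 reads). Its log2 ratios came to -0.82 and -1.41. Without the pseudocount they were -1.35 (-1.66 to -1.03) and -2.95 (-3.49 to -2.45). It met the level limit through si-Control alone, so its being lower is in part a product of that limit. The si-RBCK1 libraries also differed from each other by more than counting error at this gene, by a log2 ratio of 1.06 to 2.19 on reads. Its paralog HNRNPL, which binds CA repeats, was at 134, 158 and 155 RPKM (0.24 and 0.20).

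HNRNPM, an exon repressor and enhancer that binds GU-rich RNA, was at 84.0, 134 and 125 RPKM, with log2 ratios of 0.66 and 0.57. HNRNPK, a poly(C)-binding protein and known coactivator of p53, was at 209, 235 and 201 RPKM (0.17 and -0.06). HNRNPU, a nuclear matrix protein that binds chromatin-associated RNA, was at 107, 123 and 129 RPKM (0.19 and 0.27). HNRNPM was the only one of these 3 past 1.5-fold, with si-RBCK1 #1. Relatives of HNRNPU gave 52.9, 60.4 and 64.0 RPKM for HNRNPUL1 (0.19 and 0.27) and 9.20, 10.6 and 10.002 RPKM for HNRNPUL2 (0.19 and 0.11). HNRNPR was at 21.6, 22.5 and 21.7 RPKM (0.06 and 0.01).

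Summed over each family, the 12 SRSF genes held 372, 516 and 548 RPKM, which is 1.39 and 1.47 times the si-Control sum. The 23 hnRNP genes held 1903, 2183 and 2094 RPKM, 1.15 and 1.10 times si-Control. As a share of all RPKM of the library, the SRSF genes made up 0.0897%, 0.120% and 0.129%.

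**Figure D3:**
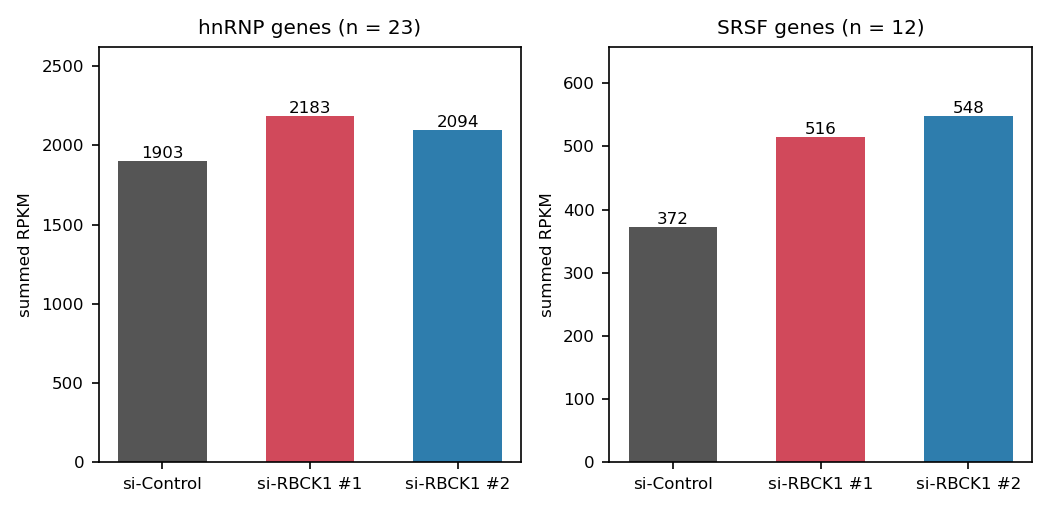
Summed RPKM (y axis, from 0) of the 23 hnRNP genes (left) and the 12 SRSF genes (right) in each library, 1 bar per library. The hnRNP sum is 1903 in si-Control and 2183 and 2094 after depletion, and the SRSF sum 372 against 516 and 548.

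Some members have near-identical copies with which reads may be exchanged. The table lists 97 non-coding copies of hnRNP and SRSF genes, mostly pseudogenes, of which 31 were at 0 in each library and 7 had a mean of at least 1 RPKM. HNRNPA1 has the most, and its 68 listed copies, with the protein-coding HNRNPA1L2 among them, summed to 21.2 RPKM in si-Control, 7.87% of HNRNPA1. Its highest copy, HNRNPA1P7, was at 7.36, 8.48 and 7.28 RPKM. HNRNPA1L2 was at 2.84, 1.58 and 3.63 RPKM (248, 151 and 312 reads). As its reads and those of HNRNPA1 may have been split by the counting, this pattern is uncertain. Listed copies of the other members summed to at most 3.35% of their parent gene, for HNRNPA3.

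Other genes of at least 1 RPKM overlap the listed span of 7 members. HNRNPH3 overlaps PBLD on the opposite strand, which was also lower (4.49, 1.33 and 2.32 RPKM), and over a longer stretch RUFY2, which was at 3.26, 4.02 and 3.09 RPKM. HNRNPAB overlaps PHYKPL, which was lower (10.2, 5.43 and 6.85 RPKM) where HNRNPAB was higher. SRSF2 overlaps MFSD11 (7.78, 11.4 and 8.49 RPKM) and SRSF9 overlaps GATC (8.01, 12.3 and 10.1 RPKM), which were higher too. HNRNPK, HNRNPL and HNRNPU each overlap a non-coding gene on their own strand, which no strand setting separates. The highest of these 3 neighbours, that of HNRNPU, was at 5.98, 3.51 and 4.77 RPKM. The strand setting of the counting is not given in the sources used here, and the part of these neighbours in the values was not tested. Without the 7 members, the SRSF medians were 0.41 and 0.53, as with them.

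The machinery around these families was examined with lists written from general knowledge, but chosen with earlier results of these data known. Their medians and shares are thus descriptions and give no independent support. The 20 SR-related proteins, which carry arginine-serine stretches outside the SRSF family, had medians of 0.27 and 0.37. At least 1.5-fold higher were 4 of them with si-RBCK1 #1 (20%, against 12.1% of all genes) and 7 with si-RBCK1 #2 (35.0%, against 11.3%), and 0 were lower in either library (background 11.6% and 9.32%). RNPS1, a part of the exon junction complex, was at 28.2, 49.3 and 56.1 RPKM (0.78 and 0.97). LUC7L, a U1-associated factor, was at 5.40, 10.4 and 12.2 RPKM (0.84 and 1.04). SCAF1 (0.65 and 1.03) and ACIN1 (0.64 and 0.75) were also past 1.5-fold.

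Kinases that phosphorylate SR tails and the importin that carries phosphorylated SR proteins into the nucleus did not stand higher. The 9 genes of this list with at least 1 RPKM had medians of -0.08 and -0.12, and CLK1 was the only one past 1.5-fold. That is 11.1% of the list in each library. Lower by that limit were 11.6% and 9.32% of all genes, so the share lies near the background. CLK1, a nuclear kinase of SR proteins whose own transcript is kept partly unspliced, was at 22.1, 8.98 and 11.5 RPKM (3093, 1378 and 1586 reads), with log2 ratios of -1.21 and -0.88.

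The core spliceosome list of 46 genes had medians of 0.37 and 0.25. At least 1.5-fold higher were 12 genes with si-RBCK1 #1 (26.1%, against 12.1% of all genes and 13.9% of protein-coding genes averaging 10 RPKM or more) and 10 with si-RBCK1 #2 (21.7%, against 11.3% and 12.3%). At least 1.5-fold lower was 1 gene of the list in each library, a different gene each time (background 11.6% and 9.32%). SNRNP70, the U1 snRNP protein that SR proteins contact at the 5′ splice site, had the highest ratio of the list. It was at 34.9, 97.5 and 104 RPKM (2569, 7854 and 7493 reads), log2 ratios of 1.46 and 1.54. Both subunits of U2AF, which reads the 3′ splice site, were higher, U2AF1 at 28.2, 58.5 and 55.0 RPKM (1.03 and 0.94) and U2AF2 at 53.3, 83.7 and 97.5 RPKM (0.64 and 0.86). Also past 1.5-fold and higher were SNRPD3 (1.16 and 0.96), SF3A1 (1.02 and 0.91), PRPF4 (0.92 and 0.72), EFTUD2 (1.13 and 0.97), DDX23 (1.09 and 1.02) and DHX38 (0.89 and 0.90). For U2AF1, a near-identical gene copy is listed in human assemblies later than the hg19 used here, and its bearing on this level was not tested.

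Other lists had medians near that of all genes. The 18 genes of the list of hnRNP-type proteins under other symbols, with their importer TNPO1 among them, had medians of 0.06 and 0.08. At least 1.5-fold changed were 3 of them in each library (16.7%, against 23.7% and 20.6% of all genes). RBMX (hnRNP G) was at 38.5, 74.6 and 69.2 RPKM (0.94 and 0.83), and CIRBP, a cold-inducible RNA-binding protein, was at 23.2, 12.7 and 14.1 RPKM (-0.82 and -0.69). The 22 other alternative splicing regulators had medians of -0.07 and -0.05. Past 1.5-fold in either direction were 4 of them in each library (18.2%, against 23.7% and 20.6% of all genes), so the share lies under the background. MBNL2 (31.4, 13.5 and 13.7 RPKM) and QKI (15.2, 6.96 and 6.23 RPKM), which promote differentiated splicing patterns, were lower, with log2 ratios of -1.17 and -1.14 and of -1.02 and -1.16. SFPQ, a paraspeckle protein, was higher at 55.0, 99.1 and 102.8 RPKM (0.84 and 0.89). The 15 nonsense-mediated decay factors had medians of 0.02 and -0.03, with UPF3B lower (-0.85 and -0.59) and SMG8 higher (0.76 and 0.64). Past 1.5-fold in either direction were 4 of the 15 with si-RBCK1 #1 (26.7%) and 2 with si-RBCK1 #2 (13.3%), against the same backgrounds.

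**Figure D4:**
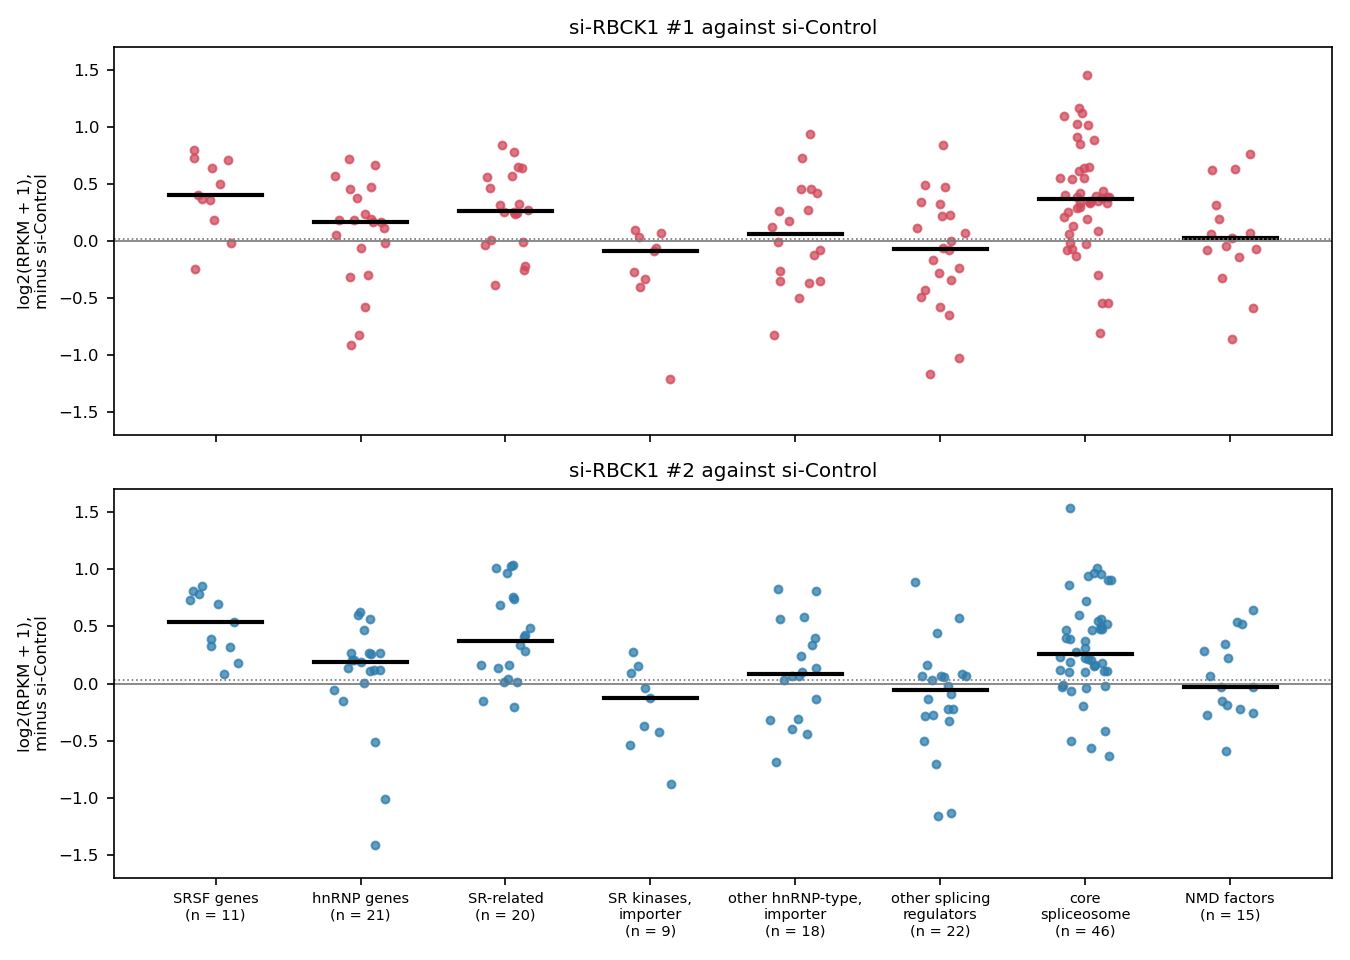
Log2 ratio on the log2(RPKM + 1) scale (y axis) of the genes of each list that averaged 1 RPKM or more, for si-RBCK1 #1 (upper) and si-RBCK1 #2 (lower). Each point is a gene, black bars are list medians and the dotted line is the median of all genes; the SRSF median of 0.41 and 0.53 is the highest of the lists shown, and that of the SR kinases and importer (-0.08 and -0.12) the lowest.

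Promoter windows (250 bases before to 50 after the annotated start, RefSeq, GRCh38.p14) were matched for 33 of the 35 members, all but HNRNPA1 and SRSF2. The first window listed per gene was taken, and whether it begins the hg19 span that was counted was not tested. Windows are shown for the members with the highest ratio with si-RBCK1 #1 in each family, SRSF3 and HNRNPAB, and for the lowest in each library, HNRNPH3 and HNRNPLL. Capitals mark TATAAA, the CCAAT box, CACGTG (the E-box) and CCGGAAGT (an ETS motif), each on either strand.
SRSF3, chr6:36594112-36594411, plus strand: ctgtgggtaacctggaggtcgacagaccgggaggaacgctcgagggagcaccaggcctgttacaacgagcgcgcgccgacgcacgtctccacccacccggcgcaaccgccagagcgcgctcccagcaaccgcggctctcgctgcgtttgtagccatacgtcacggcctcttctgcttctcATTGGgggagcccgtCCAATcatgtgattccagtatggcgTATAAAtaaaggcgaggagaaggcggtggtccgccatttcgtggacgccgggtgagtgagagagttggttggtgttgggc
HNRNPAB, chr5:178204283-178204582, plus strand: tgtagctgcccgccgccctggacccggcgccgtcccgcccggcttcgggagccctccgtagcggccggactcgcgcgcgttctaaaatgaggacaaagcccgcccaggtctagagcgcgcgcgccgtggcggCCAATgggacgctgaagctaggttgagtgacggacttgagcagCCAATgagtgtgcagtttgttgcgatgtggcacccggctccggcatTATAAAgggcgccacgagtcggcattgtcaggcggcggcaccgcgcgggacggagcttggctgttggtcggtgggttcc
HNRNPH3, chr10:68331443-68331742, plus strand: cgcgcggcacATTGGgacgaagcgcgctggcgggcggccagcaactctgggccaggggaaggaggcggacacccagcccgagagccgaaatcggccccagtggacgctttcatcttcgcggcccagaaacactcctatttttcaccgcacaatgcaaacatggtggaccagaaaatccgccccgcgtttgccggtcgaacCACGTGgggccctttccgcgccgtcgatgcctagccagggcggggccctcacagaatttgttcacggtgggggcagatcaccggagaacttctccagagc
HNRNPLL, chr2:38602879-38603178, minus strand: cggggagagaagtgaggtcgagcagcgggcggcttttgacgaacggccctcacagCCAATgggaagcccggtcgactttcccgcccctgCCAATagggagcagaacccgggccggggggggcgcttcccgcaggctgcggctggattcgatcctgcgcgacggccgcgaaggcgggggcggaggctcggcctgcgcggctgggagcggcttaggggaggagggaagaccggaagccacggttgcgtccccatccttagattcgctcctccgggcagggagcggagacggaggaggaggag
SRSF3 and HNRNPAB each held TATAAA beginning 30 and 29 bases before the start and a pair of CCAAT boxes upstream of it. HNRNPH3 held an E-box beginning 50 bases before the start, and HNRNPLL held a pair of CCAAT boxes and no TATAAA. Across the 33 windows, TATAAA occurred in 5 (15.2%, against 4.98% of 8546 windows of expressed protein-coding genes and 11.95% of all 27305 windows). Besides SRSF3 and HNRNPAB, it began farther from the start, 126 (HNRNPD), 184 (HNRNPC) and 206 bases before it (SRSF11, other strand). The 33 windows include HNRNPCL1, HNRNPCL2 and SRSF12, which were under the level limit. CACGTG occurred in 7 (21.2%, against 10.8% and 7.43%), all of them hnRNP genes, HNRNPM among the higher and HNRNPH3 among the lower ones. CCAAT occurred in 17 (51.5%, against 37.2% and 35.7%), which were 15 hnRNP and 2 SRSF genes. CCGGAAGT occurred in 3 (9.09%, against 9.95% and 4.44%), and CRE (TGACGTCA) and E2F (TTTCGCGC or TTTGGCGC) in 0. The GC box GGGCGG occurred in 21 (63.6%, against 72.2% and 44.6%). The higher SRSF genes with a window thus had no listed motif in common, as SRSF1 held none of those searched.

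Matches to the siRNA seeds were counted in the longest protein-coding transcript of each of the 32 members (GENCODE release 29). The site for si-RBCK1 #1, ATCAACA, occurred in 4 members (12.5%, against 23.8% of 10553 protein-coding genes), which were HNRNPM, SRSF8, SRSF9 and SRSF11. The site for si-RBCK1 #2, GATTTCT, occurred in 15 (46.9%, against 29.2%), HNRNPH3, HNRNPLL, SRSF1 and SRSF3 among them. For the 15 genes, the median of the log2 ratio with si-RBCK1 #2 minus that with si-RBCK1 #1 was -0.05, and for the 17 genes without the site it was 0.08. Over all protein-coding genes the same medians were 0.01 with and 0.01 without the site. For si-RBCK1 #1, its log2 ratio minus that of si-RBCK1 #2 had a median of -0.09 over the 4 members with its site and -0.02 over the 28 without. Over all protein-coding genes these medians were -0.02 for 2513 genes with the site and -0.004 for 8040 without. The part of seed matches in the members' values was not tested.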

How the data were processed

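Total RNA of Caki-1 cells was depleted of rRNA with Ribo-Zero and sequenced paired-end on an Illumina instrument, per the labels. The submitters' processing notes name FastQC, Trimmomatic, TopHat2, HTSeq and the build hg19; the gene annotation is not given in the sources used here. The authors deposited RPKM values, 1 per gene and library, with 1 entry that is not a number (EGR1, left out). Columns with the authors' own fold change, p-value and q-value were not used. Short RNAs (200 nt or less) gave the library totals, since for them RPKM times length comes in whole steps. For each member the smallest length of up to 50000 nt giving whole reads in the 3 libraries (within 0.002 reads) was then searched, which succeeded for all 35 members, so reads are the smallest the values allow. Counting intervals (95%, exact Clopper-Pearson) cover counting error only. Genes averaging 1 RPKM or more were compared on the log2(RPKM + 1) scale, without a test, as each condition had 1 library. The members and lists were chosen with earlier results of these data known. Named were all members, and genes of other lists past 1.5-fold in the same direction with both siRNAs, of which 1 is not reported here. Alternatives were a pseudocount of 0.1 or 5 RPKM, a minimum mean of 5 RPKM or none, equal medians or totals of the libraries, and leaving out members with copies. The steps were tested on simulated data. The work used scipy 1.17.1, pandas 2.3.3, numpy 2.4.6 and matplotlib 3.10.9 under Python 3.11.15.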

Additional observations from a re-analysis of the deposited data

Results flagged for a closer look

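For 3 members the log2 ratios with the siRNAs had opposite signs, with each counting interval off 0. The difference between the siRNAs was not tested beyond counting error. HNRNPA0 had a log2 ratio that was lower by 0.19 with si-RBCK1 #1 than with si-RBCK1 #2 (a difference of -0.19). HNRNPA1L2 had a difference of -0.84, on 151 to 312 reads that may be shared with HNRNPA1. HNRNPK had a difference of 0.22.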

How the results depend on the processing

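No paired analysis was possible because the groups hold a single library each. Of 70 summary values (counts of members, family medians and RBCK1) under the alternatives, 64 kept their value within the limits set for them, 6 moved and 0 changed sign. The limits for counts and medians were wide. A count was kept if it changed by at most 1.5-fold. A family median was kept within a rank interval over its member genes, which treats genes as replicates. The number kept is thus no measure of stability, and the values below show the changes themselves. With a pseudocount of 0.1 RPKM, 1 member in place of 0 was past 2-fold with si-RBCK1 #1, and the RBCK1 log2 ratio with that siRNA was -1.73. With a pseudocount of 5 RPKM, 0 members in place of 2 were past 2-fold with si-RBCK1 #2, and the RBCK1 log2 ratios were -1.36 and -1.15. With a mean of at least 5 RPKM, 1 member was past 2-fold with si-RBCK1 #2, since HNRNPLL is then left out. The SRSF medians lay between 0.35 and 0.50 with si-RBCK1 #1 and between 0.46 and 0.70 with si-RBCK1 #2, and the hnRNP medians between 0.11 and 0.18 and between 0.14 and 0.24. Members past 1.5-fold numbered 6 to 10 and 6 to 10. Equal medians or totals moved the median of all genes by at most 0.05. Of 320 single ratios, 61 moved beyond the counting interval and 2 changed sign, both of HNRNPR with si-RBCK1 #2 (0.01, which became -0.04 with equal medians and -0.02 with equal totals). Leaving out members that overlap another gene was chosen after seeing the data, and the 2-fold counts were not made for it. HNRNPH3, which was past 2-fold with si-RBCK1 #2, is among the members it leaves out. A single si-Control culture stands in both comparisons, and its part was not tested.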
